A study of Mus musculus with 6 samples.

Results

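Transcripts of 9 CXC chemokine genes (Cxcl1, Cxcl2, Cxcl9, Cxcl10, Cxcl11, Cxcl12, Cxcl13, Cxcl14 and Cxcl16) were compared between CD11b-selected brain cells of MRL/lpr lupus mice and MRL/mpj control mice. The genes were chosen by symbol from the 55401 genes of the count table, and all 9 were among the 19554 genes with enough counts to be tested. There were 3 libraries of each strain, from untreated animals aged 6 weeks by the labels. The strains share the MRL background, and in MRL/lpr the death receptor gene Fas is mutated (lpr). Brains were perfused and digested with collagenase, and the cells were enriched on Percoll and held on magnetic beads against CD11b, an integrin that microglia share with the other myeloid cells. The number of libraries equals the number of mice described for each strain, but the labels do not tie a library to a mouse, so p-values measure the spread between libraries.

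CXC chemokines are small secreted proteins that guide leukocytes along gradients, and they are named for a pair of cysteines separated by another residue. Members with a glutamate-leucine-arginine motif before these cysteines act on CXCR2 and call in neutrophils, the interferon-induced members act on CXCR3 of T and NK cells, and others keep cells in place in resting tissue. In the brain, microglia, border macrophages, endothelium and astrocytes are among their sources.

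The libraries held 45481609 to 49846634 counts, of which mitochondrial genes took 3.06% to 3.49% in MRL/lpr and 5.84% to 6.38% in MRL/mpj. Genes with exactly 4 counts numbered 1138 to 1288 in a library, against 320 to 415 genes with 3 counts and 211 to 261 genes with 5 counts, so a low count may rest on fewer read pairs than its size. MRL/lpr replicate 3 stood apart, with 6.38% of its counts in CT010467.1, against 0.169% to 0.457% in the other libraries. Fas had 282 to 461 counts in MRL/lpr and 362 to 432 in MRL/mpj, which does not check the strain labels because a gene count does not separate mutant from intact transcripts. The methods describe female mice, yet 4 Y-linked genes together had at least 8408 counts in each library, and Xist had 8886 to 11319 counts in MRL/lpr and 27 to 38 in MRL/mpj. Strain and the sex of the animals therefore cannot be told apart in these comparisons. Microglial markers were abundant in both strains, with Tmem119 at 99987 to 132885 counts in each library. Of the 10 microglial markers listed, 1 was higher in MRL/lpr and 3 were lower, while with scaling by library size only none was higher and 5 were lower.

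Of the 9 chemokine genes, 6 lie on chromosome 5 of GRCm38. Cxcl1 (90891241 to 90893115) and Cxcl2 (90903871 to 90905938) are neighbours on the plus strand, Cxcl9 (92321347 to 92328079), Cxcl10 (92346638 to 92348889) and Cxcl11 (92359544 to 92365485) follow each other on the minus strand, and Cxcl13 (95956951 to 95961068) lies on the plus strand. Cxcl12 is on chromosome 6 (117168535 to 117181367, plus strand), Cxcl14 on chromosome 13 (56288643 to 56296551, minus strand) and Cxcl16 on chromosome 11 (70453983 to 70459984, minus strand). The annotation calls Cxcl11 a polymorphic pseudogene, a gene that is broken in the reference strain and may be intact in others, and lists the other 8 as protein coding. Exons of Cxcl16 share 552 bases with Zmynd15 on the opposite strand, and exons of Cxcl10 share 133 bases with Art3. The kit kept strand by the labels, but whether the counting used it is not given in the sources used here. Zmynd15 had at most 512 counts and Art3 at most 206 counts in any library. The opposite-strand pseudogene Gm2673, which shares 1582 exon bases with Cxcl11, had 0 counts in each library.

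The stretch of 250 bases before the RefSeq start site (GRCm38.p6) was read for the 7 members that had one. The sequences of 5 members of chromosome 5 are shown, because 2 of them form a neutrophil-attracting pair, 2 are interferon-induced neighbours with unlike strain differences, and Cxcl13 had the largest fold change of the 9. Capitals mark a kappa B motif, the site of NF-kB, or an interferon-stimulated response element (ISRE, searched as GAAA, any 2 bases and GAAA again), and each sequence runs from 5′ to 3′ on the strand of its gene.
Cxcl1, chr5:90890995-90891244, plus strand: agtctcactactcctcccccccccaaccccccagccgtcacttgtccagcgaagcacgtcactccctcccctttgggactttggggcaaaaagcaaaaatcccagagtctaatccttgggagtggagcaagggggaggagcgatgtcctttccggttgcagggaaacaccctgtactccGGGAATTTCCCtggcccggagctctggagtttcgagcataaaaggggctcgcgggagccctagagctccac
Cxcl2, chr5:90903649-90903898, plus strand: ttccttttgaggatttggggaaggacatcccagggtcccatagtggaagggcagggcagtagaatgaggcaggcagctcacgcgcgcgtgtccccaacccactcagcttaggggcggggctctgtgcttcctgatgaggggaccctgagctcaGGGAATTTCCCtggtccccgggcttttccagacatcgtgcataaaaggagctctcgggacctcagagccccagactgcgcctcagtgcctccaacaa
Cxcl9, chr5:92328080-92328329, minus strand: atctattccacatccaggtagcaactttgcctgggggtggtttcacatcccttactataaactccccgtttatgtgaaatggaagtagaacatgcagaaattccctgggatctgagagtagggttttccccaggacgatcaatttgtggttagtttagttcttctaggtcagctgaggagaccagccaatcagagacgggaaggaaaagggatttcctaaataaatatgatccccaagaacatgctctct
Cxcl10, chr5:92348890-92349139, minus strand: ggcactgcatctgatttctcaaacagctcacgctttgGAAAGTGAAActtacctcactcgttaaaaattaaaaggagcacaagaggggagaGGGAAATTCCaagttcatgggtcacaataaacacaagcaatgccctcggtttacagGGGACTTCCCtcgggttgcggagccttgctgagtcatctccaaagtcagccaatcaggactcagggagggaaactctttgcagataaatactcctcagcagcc
Cxcl13, chr5:95956689-95956938, plus strand: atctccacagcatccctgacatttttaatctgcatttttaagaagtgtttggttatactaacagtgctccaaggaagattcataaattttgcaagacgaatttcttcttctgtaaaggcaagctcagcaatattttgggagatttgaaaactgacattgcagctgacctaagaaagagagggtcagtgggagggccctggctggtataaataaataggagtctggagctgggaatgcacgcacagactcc
Cxcl1 and Cxcl2 each held the same kappa B letters, GGGAATTTCC, at -71 to -62 and at -97 to -88 from the start, with a match shifted by 1 base on the other strand. Cxcl10 held an ISRE, GAAAGTGAAA, at -213 to -204 and kappa B matches at -159 to -150 and at -103 to -94. The windows of Cxcl9, Cxcl12 and Cxcl13 held none of the ISRE, kappa B or STAT (GAS, TTCNNNGAA) motifs searched on both strands, and that of Cxcl14 held an ISRE and a GAS match. Of 32851 windows of this length, 3.9% held a kappa B match, 2.98% an ISRE and 7.02% a GAS match. These are letters of the C57BL/6J reference, not of the MRL strains, and a match is not a measured binding site.

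In the MRL/lpr libraries, 6 of the 9 chemokine genes were higher and none was lower at an adjusted p under 0.05 in edgeR's quasi-likelihood test after Benjamini-Hochberg adjustment. Over all genes tested, 11.1% were higher and 9.06% were lower by the same rule. Cxcl13, Cxcl9, Cxcl11 and Cxcl16 were differentially expressed (absolute log2 fold change of at least 1 as well), all upward. Of all genes tested, 8.34% were differentially expressed, 4.67% upward and 3.66% downward. Cxcl2 and Cxcl12 rose less. The strains' libraries did not overlap in CPM (counts relative to library depth, scaled by TMM) for 7 members, each higher in MRL/lpr. Over all genes tested this held for 39.0% in either direction and for 19.6% upward. Among the 7, Cxcl2 and Cxcl14 overlapped in raw counts. An unadjusted p under 0.05 was reached by 8 of the 9, against 31.8% of all genes. The median log2 fold change was 1.03 over the 9 members and -0.01 over all genes tested. With scaling by library size only, 5 members were higher, and all genes split into 1634 higher and 2790 lower in place of 2178 and 1772, with their median at -0.13. Without MRL/lpr replicate 3, 7 members were higher, without MRL/mpj replicate 2 or 3 there were 4, and without any other library there were 5. In bulk libraries, fewer cells of a type and less RNA per cell cannot be told apart.

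**Figure D1:**
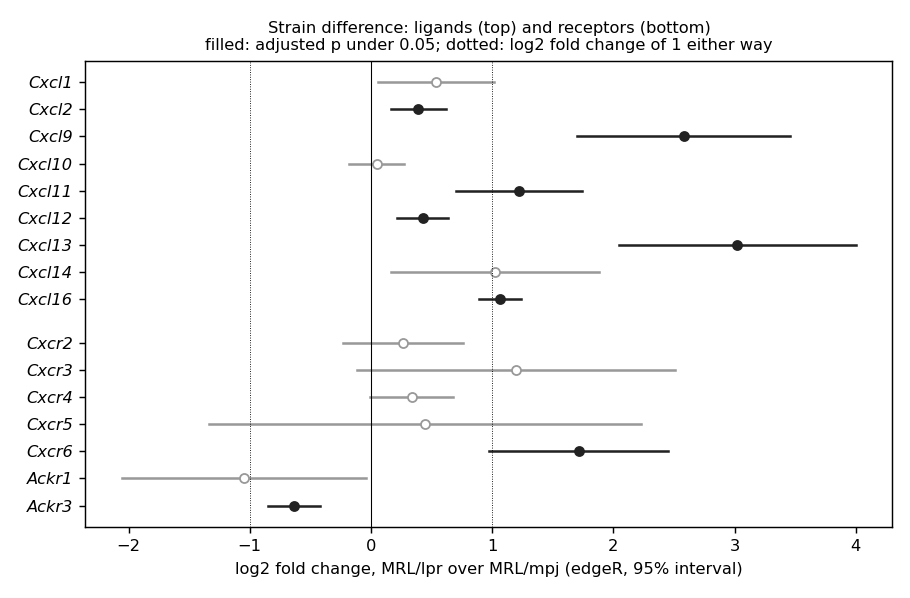
The horizontal axis gives the log2 fold change of MRL/lpr over MRL/mpj from edgeR with its 95% interval, for 9 CXC ligand genes above and 7 receptor genes below. Filled points passed the test, dotted lines mark a log2 fold change of 1 either way, and Cxcl13 and Cxcl9 lie farthest to the right at 3.02 and 2.58.

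Levels per length spanned a wide range. In the authors' FPKM (fragments relative to gene length and library depth), Cxcl10 led the MRL/mpj libraries at 31.0 ± 1.55 (SD, n = 3), followed by Cxcl2 at 21.9 ± 1.03, Cxcl12 at 20.1 ± 1.22 and Cxcl16 at 17.2 ± 0.28. Cxcl2 and Cxcl12 overlapped between libraries, so their order is not resolved. Cxcl1 came next at 3.77 ± 0.483 FPKM, and Cxcl11, Cxcl14, Cxcl13 and Cxcl9 were below 1. In the MRL/lpr libraries, Cxcl16 stood first at 33.0 ± 3.16 FPKM, but in the order Cxcl16, Cxcl10, Cxcl2 and Cxcl12 each gene overlapped with its neighbour. Cxcl13 moved from eighth place at 0.237 ± 0.0896 FPKM to sixth at 1.82 ± 0.641 FPKM, above Cxcl11, with which its libraries overlapped, and Cxcl14. Cxcl9 had the lowest mean in both strains, though in MRL/lpr its libraries overlapped with those of Cxcl14. Of the summed FPKM of the 9 genes in a library, Cxcl16 took 26.1% to 27.1% in MRL/lpr and 17.6% to 18.7% in MRL/mpj, and Cxcl10 took 22.0% to 24.9% and 31.5% to 33.6%.

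**Figure D2:**
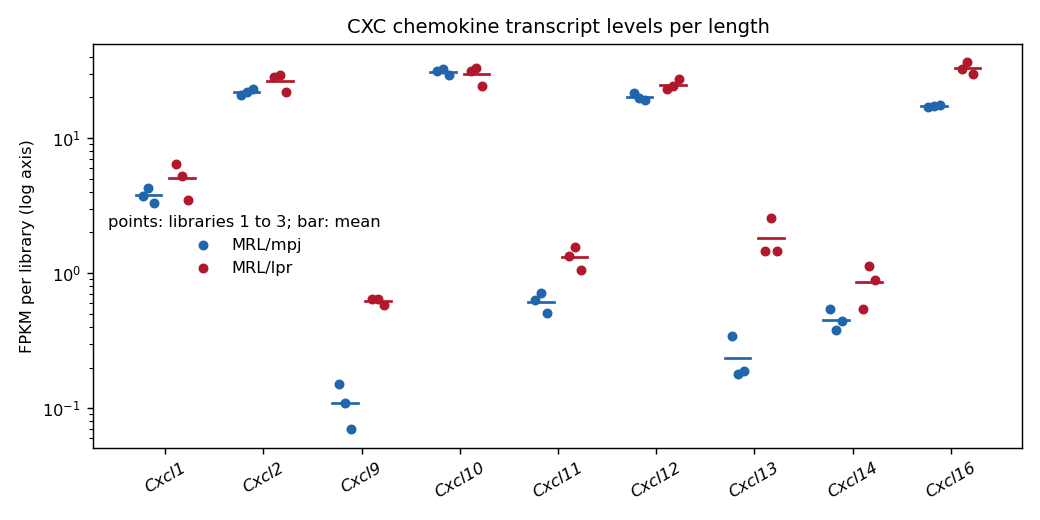
The vertical axis is FPKM on a log scale, and each point is 1 library of MRL/mpj (blue) or MRL/lpr (red), with a bar at the mean of 3. Cxcl10, Cxcl2, Cxcl12 and Cxcl16 form the upper tier, and the points of the strains do not overlap for Cxcl9, Cxcl11, Cxcl12, Cxcl13 and Cxcl16.

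Cxcl1 and Cxcl2 encode neutrophil attractants that act on CXCR2. Cxcl2 had counts of 3133, 3276 and 2301 in MRL/lpr and of 2388, 2416 and 2654 in MRL/mpj. These raw counts overlapped, with MRL/lpr replicate 3 lowest of all, but after TMM scaling the lowest MRL/lpr library stood at 55.1 CPM and the highest MRL/mpj library at 51.0 CPM. This gave a log2 fold change of 0.39 (SE 0.10, edgeR adjusted p = 0.0236). The call was lost in 9 of 15 alternatives, among them scaling by library size only, with a log2 fold change of 0.27. It was also lost in each fit without 1 library except that without MRL/lpr replicate 3.

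Cxcl1 had counts of 653, 528 and 332 in MRL/lpr and of 385, 432 and 349 in MRL/mpj. MRL/lpr replicate 3 had the lowest count of all and in CPM lay among the MRL/mpj libraries, so the groups overlapped. The fitted log2 fold change was 0.53 (95% interval 0.05 to 1.01, edgeR adjusted p = 0.117), and without MRL/lpr replicate 3 it was 0.73 and passed the test (adjusted p = 0.0188). Cxcl2 counts were 4.80 to 6.93 times those of Cxcl1 in MRL/lpr and 5.59 to 7.61 times in MRL/mpj, which overlap. Cxcr2, the receptor gene, had 185 to 263 counts in MRL/lpr and 165 to 259 in MRL/mpj, with a log2 fold change of 0.27 (95% interval -0.23 to 0.76). Cxcl3, a close relative of this pair, had 23 to 41 counts in MRL/lpr and 34 to 57 in MRL/mpj, and Cxcl5 had at most 4 in any library. Genes induced by tissue dissociation were higher beside these values, with all 12 on the list passing the test upward and their summed CPM at 45440 to 51560 in MRL/lpr against 26250 to 27830 in MRL/mpj. Of 8 neutrophil markers, Ngp, S100a8 and Retnlg were higher, with a summed CPM of 716.5 to 838.2 against 568.0 to 633.8, though only Ngp passed with scaling by library size only. The part of either list in the values of Cxcl1 and Cxcl2 was not tested.

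Cxcl9, Cxcl10 and Cxcl11 encode the ligands of CXCR3, which draw activated T cells and NK cells, and all are induced by interferon gamma. Cxcl9 had counts of 104, 105 and 90 in MRL/lpr and of 25, 19 and 12 in MRL/mpj. The lowest MRL/lpr library was well above the highest MRL/mpj library. The fold change was 5.98, or 2.58 on the log2 scale (95% interval 1.70 to 3.46, SE 0.39, edgeR adjusted p = 0.00141).

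Cxcl11 had counts of 278, 323 and 204 in MRL/lpr and of 133, 146 and 108 in MRL/mpj. Again the groups did not overlap, and the fold change of 2.33 (95% interval 1.62 to 3.34) was 1.22 on the log2 scale (SE 0.23, edgeR adjusted p = 0.00493). Cxcl10, which type I interferon and NF-kB also induce, had counts of 3793, 4021 and 2785 in MRL/lpr and of 3894, 3927 and 3702 in MRL/mpj. Its groups overlapped, and MRL/lpr replicate 3 was the lowest library. The fold change was 1.03 (95% interval 0.88 to 1.21, edgeR adjusted p = 0.812), so the interval leaves out a change of the size seen for Cxcl9 or Cxcl11. The sign of this value was negative with scaling by library size only (log2 fold change -0.07) and without MRL/lpr replicate 2 (-0.03).

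Ratios within a library do not depend on the scaling between libraries. For each count of Cxcl9 there were 36.5, 38.3 and 30.9 counts of Cxcl10 in the MRL/lpr libraries and 156, 207 and 309 in the MRL/mpj libraries. The MRL/mpj ratios to Cxcl9 rest on only 25, 19 and 12 counts of that gene, which may stand for fewer read pairs. The ratio of Cxcl10 to Cxcl11 was 13.6, 12.5 and 13.7 in MRL/lpr and 29.3, 26.9 and 34.3 in MRL/mpj, and that of Cxcl11 to Cxcl9 was 2.27 to 3.08 against 5.32 to 9.0. In each of these ratios the strains did not overlap. With 3 libraries against 3, an exact two-sided permutation test of such a ratio cannot give a p below 0.1, so none was run.

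**Figure D3:**
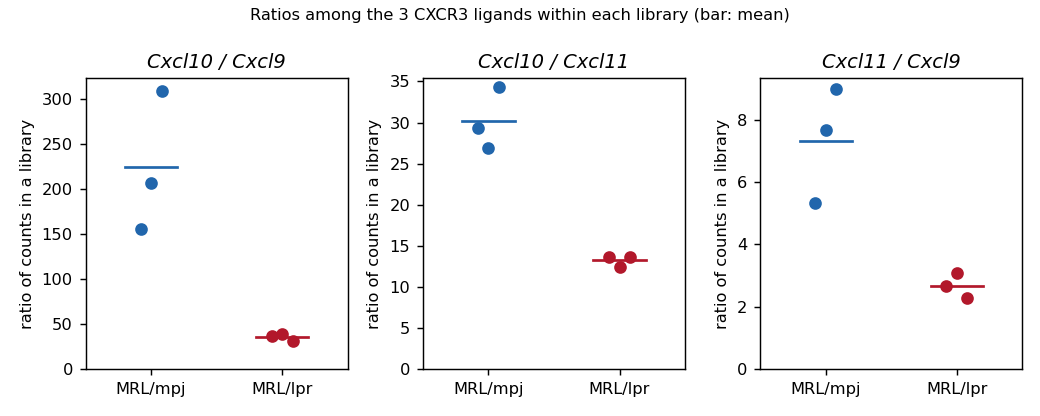
Each panel gives the ratio of the counts of a pair of CXCR3 ligand genes in a library, on an axis from 0, for MRL/mpj (blue) and MRL/lpr (red), with a bar at the mean of 3. In all 3 panels the MRL/lpr libraries lie below the MRL/mpj libraries, for example at 30.9 to 38.3 against 156 to 309 for Cxcl10 over Cxcl9. The MRL/mpj libraries held only 25, 19 and 12 counts of Cxcl9.

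The receptor gene Cxcr3 had 38, 35 and 71 counts in MRL/lpr and 11, 31 and 30 in MRL/mpj. Its log2 fold change was 1.20 (95% interval -0.11 to 2.51, edgeR adjusted p = 0.197). Ifng, the gene of interferon gamma, had 64, 71 and 26 counts in MRL/lpr and 5, 26 and 31 in MRL/mpj, with a log2 fold change of 1.52 (edgeR adjusted p = 0.159). Of 11 genes listed for interferon gamma and STAT signalling, 5 were higher and 1 was lower, with a median log2 fold change of 0.64. Irf7, a transcription factor that amplifies interferon responses, rose by 2.86 on the log2 scale (SE 0.11), Stat2 by 1.21, Irf9 by 0.64 and Jak1 by 0.53. Ifngr1, the ligand-binding chain of the interferon gamma receptor, fell by 0.76 (edgeR adjusted p = 5.22e-05). Markers of T and NK cells, which carry CXCR3 and make interferon gamma, were low in both strains but higher in MRL/lpr for 6 of 9, with a summed CPM of 15.4 to 20.2 against 3.82 to 4.997 and a median log2 fold change of 2.53. The 6 were Nkg7, Cd8a, Cd3e, Cd3g, Cd4 and Trac. Cd3e, for instance, had 103, 92 and 120 counts in MRL/lpr and 2, 0 and 9 in MRL/mpj. Cd3d and the NK cell markers Klrb1c and Ncr1 did not pass. Klrb1c had 23, 0 and 0 counts in MRL/lpr and 75, 16 and 82 in MRL/mpj, and Ncr1 had 27, 25 and 0 against 7, 21 and 0. None of the 9 markers was at 0 in all libraries, and the part of these cells in the chemokine values was not tested.

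Cxcl13, which guides B cells to follicles through CXCR5, had the largest fold change of the 9. It had counts of 90, 160 and 85 in MRL/lpr and of 22, 11 and 13 in MRL/mpj. MRL/lpr replicate 2 was the highest, and the groups did not overlap. The fold change of 8.12 (95% interval 4.12 to 16.0) was 3.02 on the log2 scale (SE 0.43, edgeR adjusted p = 0.00105), and it was 2.71 to 3.37 over the fits without 1 library. Cxcr5 was scarce, with 41, 25 and 19 counts in MRL/lpr and 23, 42 and 4 in MRL/mpj, and the groups overlapped.

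The lymphotoxin pathway, which acts through alternative NF-kB and induces Cxcl13 in lymphoid stroma, was read from 6 genes, of which 3 were higher and none was lower, with a median log2 fold change of 0.79. Ltb, a lymphotoxin subunit, had 692, 692 and 823 counts in MRL/lpr and 122, 201 and 276 in MRL/mpj, a rise of 2.07 in log2 (SE 0.28, edgeR adjusted p = 0.000809). Nfkb2 and Relb, the transcription factors of this branch, rose by 0.99 and 0.84. Of 9 markers of B and plasma cells, 8 were tested, and Jchain and Mzb1 were higher. The summed CPM of the list was 30.4 to 32.9 in MRL/lpr against 15.2 to 16.0 in MRL/mpj. Jchain alone made most of this difference, at 13.8 to 16.7 CPM in MRL/lpr against 0.807 to 1.44 CPM in MRL/mpj. Mzb1, a chaperone gene of plasma cells, had counts of 25, 54 and 48 in MRL/lpr and 0 in each MRL/mpj library, so its fitted fold change depends on the prior count and is no bound. Cd79b, the B cell marker with the most counts in MRL/mpj, had 296, 273 and 326 counts in MRL/lpr and 413, 444 and 396 in MRL/mpj and did not pass (log2 fold change -0.30, edgeR adjusted p = 0.276). The part of these cells in the Cxcl13 values was not tested.

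Cxcl16 encodes a membrane-bound chemokine that also takes up oxidized lipoprotein, and its shed form attracts CXCR6-bearing T and NK cells. It had counts of 5322, 5927 and 4596 in MRL/lpr and of 2818, 2783 and 2944 in MRL/mpj. The groups stood far apart, with MRL/mpj libraries within a narrow range. The fold change was 2.09 (95% interval 1.85 to 2.36), or 1.06 on the log2 scale (SE 0.08, edgeR adjusted p = 1.55e-05), and the adjusted p passed in all 15 alternatives, although with scaling by library size only the log2 fold change was 0.94, below the limit for differential expression. The opposite-strand neighbour Zmynd15 had 316 to 444 counts in MRL/lpr and 411 to 512 in MRL/mpj.

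Cxcr6, the receptor gene, had 106, 113 and 74 counts in MRL/lpr and 36, 33 and 31 in MRL/mpj, and the groups did not overlap. The rise was 1.71 in log2 (SE 0.33, edgeR adjusted p = 0.00516). Adam10 and Adam17, the proteases that shed CXCL16 from the membrane, had log2 fold changes of -0.13 (95% interval -0.71 to 0.44) and -0.02 (95% interval -0.47 to 0.42). Dpp4, which trims several CXC chemokines, had a log2 fold change of 0.05 (95% interval -0.55 to 0.64).

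Cxcl12 encodes a homeostatic ligand of CXCR4 that holds leukocytes and progenitors in their niches. It had counts of 10121, 10656 and 11305 in MRL/lpr and of 9705, 8633 and 8757 in MRL/mpj. The groups did not overlap, though they lay close together. It differed by a log2 fold change of 0.43 (SE 0.09, edgeR adjusted p = 0.0105), and the call was lost without MRL/mpj replicate 2 (adjusted p = 0.0536), without MRL/mpj replicate 3 (0.0542) and with both fits of FPKM. MRL/lpr replicate 3 was the highest library for Cxcl12 and the lowest MRL/lpr library for Cxcl1, Cxcl2, Cxcl9, Cxcl10, Cxcl11 and Cxcl16 in CPM.

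Ackr3, which scavenges CXCL12 without G-protein signalling, moved the other way. It had 856, 800 and 700 counts in MRL/lpr and 1350, 1415 and 1359 in MRL/mpj, with no overlap, and its log2 fold change was -0.63 (95% interval -0.85 to -0.42, SE 0.10, edgeR adjusted p = 0.00144). There were 11.8, 13.3 and 16.2 counts of Cxcl12 for each count of Ackr3 in the MRL/lpr libraries and 7.19, 6.10 and 6.44 in the MRL/mpj libraries. Cxcr4 had 624 to 680 counts in MRL/lpr and 474 to 654 in MRL/mpj, with a log2 fold change of 0.34 (95% interval -0.01 to 0.68). Ackr1, a chemokine sink of venular endothelium, had 67, 224 and 228 counts in MRL/lpr and 404, 449 and 372 in MRL/mpj, and its log2 fold change of -1.05 missed the threshold in edgeR (adjusted p = 0.143) and passed it in DESeq2 (adjusted p = 0.0328).

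Cell types that make Cxcl12 besides myeloid cells were present in the libraries. The 8 endothelial markers summed to 1944 to 2074 CPM in MRL/lpr and 1776 to 1833 in MRL/mpj, where Flt1 and Ly6c1 were higher and Emcn was lower, and the call of Ly6c1 was lost with scaling by library size only. Of 10 markers of pericytes and fibroblasts, none was higher and 6 were lower, with a summed CPM of 224.8 to 291.8 against 344.4 to 358.0. Astrocyte markers summed to 226.6 to 281.9 CPM against 302.9 to 319.9. Of the 8 only Slc1a3 passed the test, lower in MRL/lpr, a call lost in 5 of 15 alternatives. The lower sum came from Slc1a3, at 50.3 to 92.3 CPM in MRL/lpr against 127 to 132 CPM in MRL/mpj. S1pr1, the other large part of the sums, overlapped at 103 to 123 CPM in MRL/lpr and 115 to 126 CPM in MRL/mpj. The part of these cells in the Cxcl12 value was not tested.

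Cxcl14, a chemokine of epithelia, stroma and some neurons, had counts of 54, 113 and 83 in MRL/lpr and of 55, 38 and 46 in MRL/mpj. These raw counts overlapped, and after TMM scaling MRL/lpr replicate 1 lay just above MRL/mpj replicate 1, at 1.15 and 1.07 CPM. The log2 fold change of 1.03 (95% interval 0.17 to 1.88) did not pass after adjustment (edgeR adjusted p = 0.0947), and none of the 15 alternatives called it. Of 8 neuronal markers, none was higher and Snap25 and Syt1 were lower, at a summed CPM of 15.3 to 18.8 against 33.4 to 37.7. Of 10 markers of ependyma and choroid plexus, none was higher and 7 were lower.

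**Figure D4:**
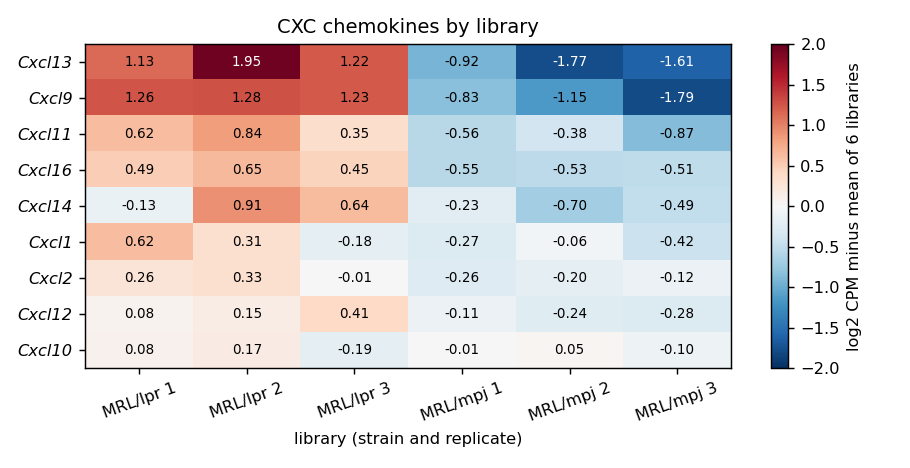
Rows are the 9 chemokine genes, columns the 6 libraries, and each cell gives the log2 CPM minus the mean of the 6 libraries. Cxcl13 and Cxcl9 range from -1.79 to 1.95, Cxcl10 stays between -0.19 and 0.17, and MRL/lpr replicate 3 has the lowest value of its strain for 6 of the genes.

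The remaining CXC ligand genes were scarce and none passed the test. Of 6 listed, Cxcl3 and Pf4, the platelet factor also made by border macrophages, were tested, and Pf4 had 60 to 80 counts in MRL/lpr and 62 to 91 in MRL/mpj. Cxcl15 had 0 counts in each library, and Cxcl5, Cxcl17 and Ppbp had at most 8. Among 8 receptor genes, 7 were tested, of which Cxcr6 rose and Ackr3 fell, while Cxcr1 had 0 counts in each library.

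Genes of canonical NF-kB signalling, which drives Cxcl1, Cxcl2 and Cxcl10, were mostly higher. Of 15 listed, 10 were higher and none was lower, against 11.1% of all genes higher, and their median log2 fold change was 0.50. Nfkbiz, a nuclear cofactor of NF-kB, rose by 1.73 in log2 (SE 0.08), and Tnf rose with a 95% interval of 1.17 to 1.44. Zc3h12a, a nuclease that degrades inflammatory transcripts, rose by 1.65 and Zfp36, which also destabilizes them, by 0.73. Rel, an NF-kB subunit, rose with a 95% interval of 0.82 to 1.19, and Il1b, an inflammatory cytokine, rose by 0.66. The listed receptors and adaptor did not pass, with log2 fold changes of -0.13 for Il1r1, -0.17 for Tlr4, -0.08 for Myd88, 0.11 for Tnfrsf1a and -0.04 for Tnfrsf1b. Zfp36 also stands on the list of dissociation-response genes. The part of the dissociation response in these NF-kB values was not tested.

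**Figure D5:**
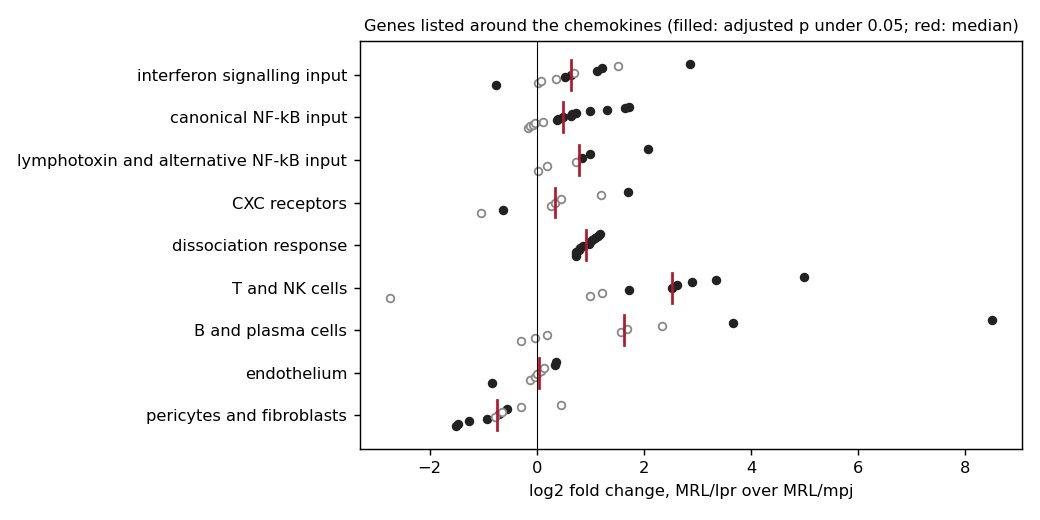
Each point is a gene of the named list, placed by its log2 fold change of MRL/lpr over MRL/mpj, filled where it passed the test, with a red line at the median of the list. All 12 dissociation-response genes and 10 of 15 canonical NF-kB genes are filled to the right of 0, and 6 genes of pericytes and fibroblasts are filled to the left, while the rightmost point, Mzb1, is a fitted value against 0 counts.

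Other myeloid cells of the CD11b gate were also read. Border macrophage markers were lower for 3 of 10 (Stab1, Cbr2 and Mrc1, the last lost in 7 of 15 alternatives) and higher for none. Their summed CPM was 467.0 to 509.0 in MRL/lpr against 785.5 to 811.6 in MRL/mpj. Stab1 made up most of these sums, at 413 to 453 CPM in MRL/lpr against 717 to 745 CPM in MRL/mpj. Cd163, F13a1, Ms4a7 and Folr2 had positive log2 fold changes of 0.62, 0.21, 0.28 and 0.58 and did not pass. Of 8 dendritic cell markers, Itgae and Ccr7 were higher, and the sum was 49.3 to 53.6 CPM against 37.5 to 38.7 CPM. Clec9a had 9, 19 and 19 counts in MRL/lpr and 54, 53 and 52 in MRL/mpj. Its log2 fold change of -1.56 passed only in 5 of 15 alternatives. Flt3 and Batf3 were at -0.77 and -0.20 and Zbtb46, Xcr1 and Cd209a at 0.36, 1.07 and 0.23, and none of them passed. Monocyte markers were higher for 4 of 7 and lower for 1, with overlapping sums of 77.8 to 88.9 and 82.9 to 90.1 CPM. Oligodendrocyte markers were lower for 3 of 9 and higher for none. The part of these cells in the chemokine values was not tested.

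The genes nearest to a member over the 6 libraries were found by the root mean square distance between centred log2 CPM values, among 12724 genes. The distance was not scaled by a gene's spread, so genes that vary little lie close together whatever their pattern. For Cxcl16 these were Bag3, Icam1 and Cd274, at distances of 0.0347, 0.0413 and 0.0426. For Cxcl9 they were Aspm, Ifi202b and Gtse1 (0.0969, 0.102 and 0.171), and for Cxcl13 Arhgef37, Cenpe and Kif14 (0.212, 0.304 and 0.314). Trim59, St3gal4 and Trpm5 came nearest to Cxcl11 (0.0918, 0.11 and 0.114). Ngp, a granule protein gene of immature neutrophils, came nearest to Cxcl12 at 0.0216, and Jmjd1c to Cxcl2 at 0.025. Srrm1 came nearest to Cxcl10 (0.0351), Trim68 to Cxcl1 (0.107) and Irx3 to Cxcl14 (0.16). Among the members themselves, Cxcl10 and Cxcl2 were closest, at 0.189, though both varied little and only Cxcl2 passed the strain test. Cxcl11 and Cxcl16 followed at 0.19, and Cxcl10 and Cxcl13 were farthest apart, at 1.46.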

How the data were processed

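RNA of 6 libraries of CD11b-selected brain cells was sequenced as paired reads. The authors deposited raw counts per Ensembl gene, without normalization, and FPKM values for each library, for genes with a count in any library. The submitters' processing notes name cutadapt 1.9.3, HISAT2 2.0.4, Cufflinks and Cuffdiff 2.2.1 with GRCm38, and the paper names DESeq2. The counting tool and annotation are not given in the sources used here. GENCODE M21 (GRCm38) named 55141 of the 55401 identifiers.

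Counts were filtered with filterByExpr (minimum count 10, minimum total 15), scaled by TMM and compared between strains by edgeR 4.0.16 in R 4.3.3 with robust quasi-likelihood tests without covariates, adjusted by Benjamini-Hochberg over all 19554 genes. Standard errors are the log2 fold change over the root of F. Thresholds followed the study (adjusted p under 0.05, and absolute log2 fold change of at least 1 for differential expression). The named genes are all 9 CXC chemokines, the members of pathway and marker lists written out by symbol, at most 6 a list by adjusted p, and the 3 genes nearest in pattern among those with a mean of at least 1 CPM and no predicted-gene symbol. Ifng, Cd3e, Cd79b and the proteases were named after their values were seen. So were the genes named as not passing for border macrophages, dendritic cells, T and NK cells and canonical NF-kB. Some listed genes are not reported by name here. The members and lists were chosen with earlier results of these data known. Motifs were searched in promoter sequences from RefSeq. The fits were checked on simulated data. Alternatives used DESeq2 1.42.0, limma 3.58.1 on FPKM, other scalings and filters, the replicate number as a block, and fits without 1 library each.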

Additional observations from a re-analysis of the deposited data

How the results depend on the processing

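Each of the 9 chemokine genes was refitted under 15 alternatives, which gives 135 values. Of these, 117 kept their direction and their side of the threshold, 13 lost the call (9 of Cxcl2 and 4 of Cxcl12), 1 gained it (Cxcl1 without MRL/lpr replicate 3) and 4 changed sign. All 4 were of Cxcl10, at -0.0733 with scaling by library size only, -0.0818 with limma on log2(FPKM + 0.1), -0.0791 with limma on log2(FPKM + 1) and -0.0299 without MRL/lpr replicate 2, in a range of -0.03 to 0.15 over the fits without 1 library. Cxcl9, Cxcl11, Cxcl13 and Cxcl16 stayed under the adjusted p of 0.05 in each alternative, but of these only Cxcl13 also kept a log2 fold change of at least 1 in each. The number of members differentially expressed was 4 in each fit without 1 library, 3 with scaling by library size only, where Cxcl16 was at 0.94, 2 with limma on log2(FPKM + 0.1), where Cxcl16 was at 0.935 and Cxcl11 at 0.98, and 1 on log2(FPKM + 1), where Cxcl16 was at 0.90, Cxcl9 at 0.55 and Cxcl11 at 0.52. In MRL/lpr and MRL/mpj, Cxcl9 averaged 0.62 and 0.11 FPKM and Cxcl11 averaged 1.32 and 0.617 FPKM. Beside such levels an added 1 FPKM is large. The cause of the lower values was not tested. The fit on log2(FPKM + 1) also left 614 differentially expressed genes of all tested, against 1630. Members higher at the adjusted p ran from 4 to 7 over the fits without 1 library, genes called from 2803 to 4334 and genes differentially expressed from 1398 to 1650. The replicate numbers are not stated to pair the libraries. Same-numbered libraries had correlations of deviations of -0.04, -0.02 and -0.03, which cannot exclude that they were handled together. With the replicate block, 5 members were higher, 4 were differentially expressed and 3063 genes were called in all, and Cxcl2 was the member no longer called (adjusted p = 0.0681).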
